A study of Mus musculus with 5 samples.

Results

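The surface antigens by which mouse blood stem and progenitor cells are sorted were described array by array in bone marrow cells of MSI2-inducible and control rtTA mice. The 10 genes were Kit, Ly6a, Cd34, Flt3, Slamf1, Cd48, Procr, Fcgr3, Cd27 and Il7r, and every probe set to which the platform annotation gives exactly 1 of these symbols was taken. This gave 13 of 45101 probe sets, for 9 of the 10 genes and of 18193 named genes. Ly6a, which encodes Sca1, has no probe set under its name in the annotation used and was not analysed here.

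MSI2, or Musashi 2, binds RNA and regulates translation, and the study asks, by its title, how it acts in normal and leukaemic blood formation. The MSI2-inducible group has 2 arrays and the control rtTA group has 3, both from C57BL/6 mice, and rtTA is the transactivator that switches on inducible transgenes when doxycycline is present. Age, sex, induction, the promoter behind the transgene and any pooling of mice are not given in the labels used here, nor is it said that the arrays of a group stem from different mice, so a p-value here measures array-to-array spread, which may be technical. The sample labels place the cells in the lineage-low, Sca1-positive, Kit-positive gate, called LSK, while the series text places them in the Sca1-negative, Kit-positive gate, called LK.

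These antigens divide the Kit-positive marrow into steps. Kit is the receptor tyrosine kinase for stem cell factor and is carried by stem cells and early progenitors alike, and Sca1 then separates stem and multipotent cells from committed myeloid and erythroid progenitors. Within the Sca1-positive cells, the SLAM receptor Slamf1 (CD150) and the protein C receptor Procr (EPCR) mark long-term stem cells. The sialomucin Cd34, the cytokine receptor Flt3, the GPI-anchored SLAM protein Cd48 and the TNF receptor family member Cd27 are gained by multipotent progenitors. The low-affinity Fc receptor Fcgr3 (CD16) marks granulocyte and monocyte progenitors, and the interleukin 7 receptor chain Il7r marks lymphoid progenitors.

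In short, none of the 9 genes passed the test between genotypes. The MSI2-inducible arrays differed from each other by more than the genotypes did in 8 of the 9. How many of all genes do so was not counted, so this is not read as a trait of the 9. Slamf1 was the gene with the greatest distance, with all 3 of its probe sets lower on average in MSI2-inducible arrays, mostly through 1 array. Fcgr3 split the arrays of both genotypes in the same way, high in some and low in others. Cd48, Flt3 and Cd27 kept to a narrow band in all 5 arrays.

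All values below are on the log2 intensity scale, and a difference is the MSI2-inducible mean minus the control mean on it. Medians of the 5 arrays were 46.4 to 48.3 on the linear scale of the deposited intensities, and the median of all log2 values was 5.57. With 5 arrays, precision is limited throughout. As a sign of RNA quality, Gapdh signal at the 3' end minus that at the 5' end was taken. It was 2.22 and 2.22 in MSI2-inducible arrays, against 2.14, 2.60 and 2.40 in control replicates 1, 2 and 3. For Actb it was -0.06 and -0.07, against -0.15, -0.15 and 0.01. Gapdh thus placed control replicate 2 highest, and the part of RNA quality in the values below was not tested. The mouse Msi2 gene lay at 11.00 and 11.43 in MSI2-inducible replicates 1 and 2, against 11.67, 11.76 and 11.74 in control replicates 1, 2 and 3, by its brightest probe set, and 7 of its 8 probe sets were lower on average in MSI2-inducible arrays. The transgene's sequence is not given, so these probe sets may not read it and check nothing about the labels. MSI2-inducible replicate 1 stood apart by neutrophil and erythroid markers, and its B cell and macrophage marker sums, given below, were also the highest of the 5 arrays. Of 14 neutrophil markers 12 were measured, and their summed linear intensity reached 70449 there and 12615 in MSI2-inducible replicate 2, against 15869 to 29566 in control arrays. Of 10 erythroid markers 8 were measured, and their sum was 3097 in MSI2-inducible replicate 1 and 660.1 in replicate 2, against 372.6 to 644.8 in control arrays. The erythroid list includes Klf1 and Epor, which committed progenitors also express. Within it the anion exchanger Slc4a1 read 10.29 and 4.91 in MSI2-inducible arrays, against 6.19, 3.72 and 7.06 in control arrays, whereas the haemoglobin chain Hba-a1 read 4.67 and 4.54 in MSI2-inducible arrays, against 4.57, 4.05 and 4.55 in control arrays. No marker is listed at 0, since the lowest deposited intensity was 2.06, and the difference of each of the 9 genes is given below with and without this array.

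Kit, the antigen that both gates require, was bright in every array. Its brighter probe set, 1452514_a_at, read 8.80 and 9.50 in MSI2-inducible replicates 1 and 2, against 9.19, 9.35 and 9.66 in control replicates 1, 2 and 3. MSI2-inducible replicate 1 was the lowest of the 5 arrays and replicate 2 the second highest, so the groups overlapped. The difference was -0.25 with a 95% interval of -0.92 to 0.43 (limma adjusted p 0.947), and without MSI2-inducible replicate 1 it was 0.10. The dimmer probe set, 1415900_a_at, read 8.18 and 8.23 in MSI2-inducible arrays, against 8.32, 7.51 and 8.58 in control replicates 1, 2 and 3. There control replicate 2 was the low array, and the difference was 0.07. The probe sets of Kit thus placed different arrays lowest.

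The brightest probe sets of all 9 genes lay above their array's median in every array. Kit stood at the 84.7th to 90.9th percentile of all probe sets of an array, Cd34 at the 93.7th to 96.4th and Procr at the 94.3rd to 96.3rd. Slamf1 reached down to the 50.4th percentile and Il7r to the 50.5th, so both had an array at the edge of the median. A percentile depends on how well a probe set binds, and it ranks no gene above another.

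The Sca1 arm of the gate could not be read from Ly6a. Of 20 genes known from Sca1-positive stem and multipotent cells, 19 were measured, and 19 lay above the array's median in every array. Of 20 genes known from Sca1-negative myeloid, erythroid and megakaryocyte progenitors, 19 were measured, and 18 lay above it in every array, where 52.6% of all 18193 genes did. Some of these genes are expressed in both kinds of cell, and these levels do not settle which gate was used. The lineage gate removes mature cells. Of 17 genes for its antigens, 13 were measured. Of these, 10 lay under the array's median in every array, where 36.7% of all genes did, and 1, the B cell receptor chain Cd79b, lay above it in every array, at 8.10 and 7.27 in MSI2-inducible arrays and 7.51, 7.52 and 7.44 in control arrays. Itgam, the myeloid antigen Mac1 of this gate, read 8.23 and 5.53 in MSI2-inducible replicates 1 and 2, against 5.58, 4.93 and 5.53 in control replicates 1, 2 and 3. It was clearly above the array's median in MSI2-inducible replicate 1 alone of the 5 arrays.

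**Figure D1:**
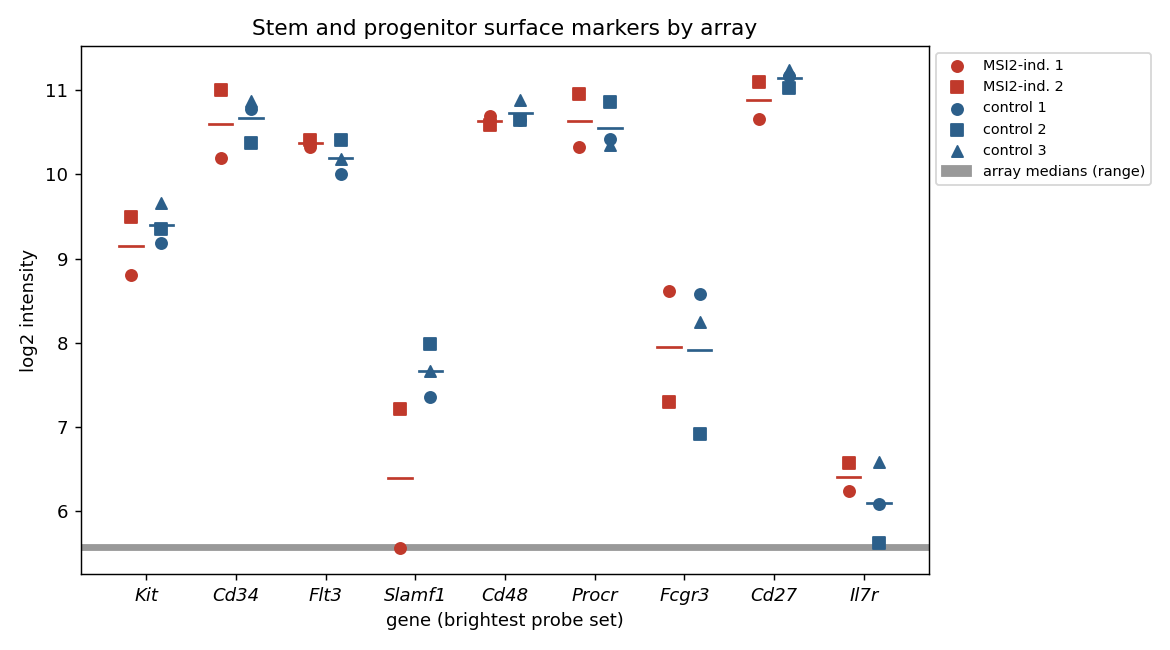
Log2 intensity of the brightest probe set of each measured gene in the 2 MSI2-inducible arrays (red) and the 3 control arrays (blue), with group means as short lines and the range of array medians as a grey band. Slamf1 runs down to 5.57 in MSI2-inducible replicate 1 and Fcgr3 splits the arrays within each group, whereas Cd48 stays between 10.58 and 10.89.

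Slamf1, the SLAM receptor by which long-term stem cells are picked out, read 5.57 and 7.22 in MSI2-inducible replicates 1 and 2, against 7.36, 7.99 and 7.66 in control replicates 1, 2 and 3, by its brightest probe set, 1425571_at. Both MSI2-inducible arrays were below all 3 control arrays, but replicate 2 missed the lowest of them by little and replicate 1 lay far below. Means were 6.39 ± 1.17 (SD, n = 2) in MSI2-inducible and 7.67 ± 0.31 (SD, n = 3) in control arrays. The difference was -1.27 with a 95% interval of -2.49 to -0.06. Slamf1 did not pass over all genes (limma adjusted p 0.883). Without MSI2-inducible replicate 1 the difference was -0.45 (limma adjusted p 0.961), and without replicate 2 it was -2.10 (0.246).

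The other Slamf1 probe sets placed the same array lowest. Probe set 1425569_a_at read 4.85 and 6.55 in MSI2-inducible arrays, against 6.27, 7.24 and 6.89 in control arrays, a difference of -1.10. Probe set 1425570_at read 5.13 and 6.03 in MSI2-inducible arrays, against 5.94, 6.93 and 6.15 in control arrays, a difference of -0.76. For both of these, MSI2-inducible replicate 2 lay above control replicate 1, so the groups overlapped, and control replicate 2 was the highest array for all 3 probe sets. In MSI2-inducible replicate 1, where Slamf1 was low, the neutrophil and erythroid marker sums given above were the highest of the 5 arrays, and their part in the Slamf1 value was not tested. In bulk RNA, fewer cells with Slamf1 and less Slamf1 RNA per cell cannot be told apart.

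Procr, the other stem cell antigen here, did not follow Slamf1 between the groups. It read 10.32 and 10.95 in MSI2-inducible replicates 1 and 2, against 10.42, 10.86 and 10.35 in control replicates 1, 2 and 3. The second replicate of each group was high and the other arrays were low, so the groups overlapped. The difference was 0.09 with a 95% interval of -0.58 to 0.76 (limma adjusted p 0.982), and it was 0.41 without MSI2-inducible replicate 1 and -0.22 without replicate 2. The suffix of its probe set, 1420664_s_at, marks probes that can match more than 1 transcript. Procr was lowest in MSI2-inducible replicate 1, as Slamf1 was, but its 10.32 there was close to the 10.35 of control replicate 3.

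Slamf1 and Cd48 belong to the SLAM receptor cluster on chromosome 1, where the RefSeq gene table of GRCm38.p6 gives the order Cd244a, Ly9, Slamf7, Cd48, Slamf1, Cd84 and Slamf6. Cd48, which multipotent progenitors carry and long-term stem cells lack, read 10.69 and 10.58 in MSI2-inducible replicates 1 and 2, against 10.64, 10.65 and 10.89 in control replicates 1, 2 and 3. These 5 values were close together and overlapped, with a difference of -0.09 and a 95% interval of -0.52 to 0.34 (limma adjusted p 0.978), and without MSI2-inducible replicate 1 it was -0.14. Cd48 and Slamf1 thus lie close to each other in the genome and have opposite use in the stem cell gate, and the bases upstream of each start are shown so that the neighbours can be read side by side. They are the 250 bases before the start from RefSeq on GRCm38.p6, plus strand, at chr1:171766882-171767131 for Slamf1 and chr1:171681742-171681991 for Cd48, with matches to the motifs searched in capitals.
Slamf1: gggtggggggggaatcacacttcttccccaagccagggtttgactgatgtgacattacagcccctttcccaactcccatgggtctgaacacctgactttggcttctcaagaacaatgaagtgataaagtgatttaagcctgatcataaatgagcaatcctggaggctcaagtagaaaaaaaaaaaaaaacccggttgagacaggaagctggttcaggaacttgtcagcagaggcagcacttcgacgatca
Cd48: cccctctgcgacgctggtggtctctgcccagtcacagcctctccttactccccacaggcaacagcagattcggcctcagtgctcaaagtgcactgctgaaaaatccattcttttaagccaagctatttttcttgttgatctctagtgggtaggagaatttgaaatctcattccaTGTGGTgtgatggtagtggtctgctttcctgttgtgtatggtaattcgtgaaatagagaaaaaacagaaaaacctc

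The motifs searched on both strands were AGATAA for GATA factors, GAGGAA for PU.1 and TGTGGT for RUNX factors. The Slamf1 window held 0 matches to these exact runs and the Cd48 window held 1, a TGTGGT. Variants of the runs were not searched, such as TGATAA, which the Slamf1 window holds. Among 32851 such windows of all genes in the table, 9.99% held AGATAA, 23.2% held GAGGAA and 14.1% held TGTGGT on either strand. A match is a run of letters only, and no match says nothing of the factor.

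The 5 other SLAM cluster genes were all lower on average in MSI2-inducible arrays, where 9032 of all 18193 genes were, and none passed the test. Cd84 read 7.51 and 7.94 in MSI2-inducible arrays, against 8.50, 7.90 and 8.68 in control replicates 1, 2 and 3, a difference of -0.64 (limma adjusted p 0.911). Slamf7 read 4.54 and 4.65 in MSI2-inducible arrays, against 4.96, 5.84 and 4.94 in control arrays. It was the only 1 of the 5 whose groups did not overlap, as for 18.7% of all genes, and most of its values lie under the median of all probe sets. Cd244a, whose product binds Cd48, differed by -0.12, Ly9 by -0.06 and Slamf6 by -0.14. Slamf1 had the lowest difference of the 7 with all 5 arrays. Without MSI2-inducible replicate 1 the lowest was Slamf7, at -0.60 against -0.45 for Slamf1, and Cd244a turned to 0.20.

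**Figure D2:**
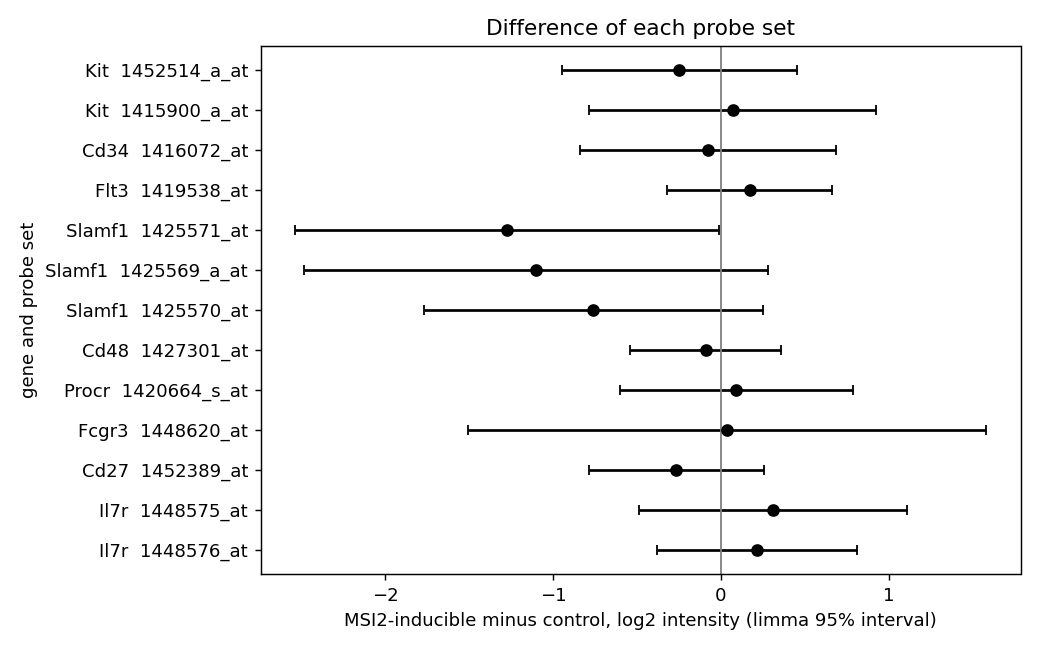
Difference of each of the 13 probe sets, MSI2-inducible minus control in log2 intensity, with the limma 95% interval over all probe sets as bars. The interval of 1 Slamf1 probe set lies below 0 before adjustment, and the intervals of the other 12 span 0.

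The multipotent progenitor antigens differed little. Cd34 read 10.20 and 11.00 in MSI2-inducible replicates 1 and 2, against 10.78, 10.37 and 10.87 in control replicates 1, 2 and 3. The MSI2-inducible arrays were the lowest and the highest of the 5, and the difference was -0.07 with a 95% interval of -0.81 to 0.66 (limma adjusted p 0.988). Without MSI2-inducible replicate 1 it was 0.33 and without replicate 2 it was -0.47.

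Flt3, the receptor of lymphoid-primed progenitors, read 10.324 and 10.408 in MSI2-inducible replicates 1 and 2, against 10.001, 10.404 and 10.180 in control replicates 1, 2 and 3. MSI2-inducible replicate 2 and control replicate 2 were the highest arrays and gave nearly the same value, so the groups overlapped. The difference was 0.17 with a 95% interval of -0.30 to 0.64 (limma adjusted p 0.947), and without MSI2-inducible replicate 1 it was 0.21.

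Cd27, a TNF family receptor kept from multipotent progenitors into lymphocytes, read 10.66 and 11.10 in MSI2-inducible replicates 1 and 2, against 11.17, 11.03 and 11.24 in control replicates 1, 2 and 3. MSI2-inducible replicate 1 was below every other array, and replicate 2 lay among the control arrays. The difference was -0.27 with a 95% interval of -0.77 to 0.24 (limma adjusted p 0.925), and without MSI2-inducible replicate 1 it was -0.04.

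Fcgr3, the Fc receptor of granulocyte and monocyte progenitors, read 8.62 and 7.29 in MSI2-inducible replicates 1 and 2, against 8.58, 6.92 and 8.25 in control replicates 1, 2 and 3. The second replicate of each group was low and the other 3 arrays were high, so the split ran across the genotypes. The difference was 0.04 with a 95% interval of -1.45 to 1.52 (limma adjusted p 0.997), it was -0.63 without MSI2-inducible replicate 1 and 0.70 without replicate 2. The arrays low in Fcgr3 were the ones in which Procr and Flt3 were highest.

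Genes known from the same progenitors split the arrays alike. Elane, the neutrophil elastase of primary granules, read 11.74 and 9.94 in MSI2-inducible replicates 1 and 2, against 11.83, 10.09 and 11.18 in control replicates 1, 2 and 3. Ms4a3, a membrane protein of granulocyte and monocyte progenitors, read 10.22 and 8.21 in MSI2-inducible arrays, against 10.26, 8.14 and 9.49 in control arrays. In both, the second replicates were low, as for Fcgr3. The mature neutrophil markers were also lowest in the second replicates, by summed intensity, and their part in the Fcgr3 value was not tested.

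The related Fc receptor genes shared the split in part. The product of Fcgr2b is recognised together with that of Fcgr3 by an antibody in common use for sorting progenitors. The gates named for these cells do not include these receptors. Fcgr2b read 8.72 and 5.81 in MSI2-inducible replicates 1 and 2, against 8.05, 8.07 and 7.46 in control replicates 1, 2 and 3. It was low in MSI2-inducible replicate 2 and not in control replicate 2. Fcgr4, a further activating Fc receptor, read 5.889 and 4.642 in MSI2-inducible arrays, against 4.907, 3.002 and 4.388 in control arrays, and Fcer1g, the signalling chain that activating Fc receptors share, read 8.97 and 7.26 in MSI2-inducible arrays, against 7.87, 7.37 and 7.64 in control arrays. Both were highest in MSI2-inducible replicate 1. Fcer1g, like Fcgr3, had its lowest values in the second replicates of both groups, and Fcgr4 was lowest in control replicate 2.

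Il7r, the lymphoid progenitor antigen, was dim. Its brighter probe set, 1448575_at, read 6.24 and 6.57 in MSI2-inducible replicates 1 and 2, against 6.08, 5.62 and 6.59 in control replicates 1, 2 and 3. The MSI2-inducible arrays lay within the control range, and the difference was 0.31 with a 95% interval of -0.46 to 1.08 (limma adjusted p 0.945). Without MSI2-inducible replicate 1 it was 0.48, and without control replicate 2 it was 0.07. The other probe set, 1448576_at, read 2.65 and 2.66 in MSI2-inducible arrays, against 2.36, 2.80 and 2.16 in control arrays, which is the 5.87th to 12.4th percentile of an array. At that level the size of a difference is uncertain.

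Over the 9 genes, 0 passed limma at an adjusted p of 0.05, with adjusted p from 0.883 to 0.997, where 0.022% of all 18193 genes passed. At an unadjusted limma p under 0.05, 1 of the 9 (Slamf1) passed, where 5.64% of all genes did. MSI2-inducible and control arrays were fully separated for 1 of the 9, again Slamf1, where they were for 18.7% of all genes. Of the 9, 4 were higher and 5 lower on average in MSI2-inducible arrays, with a median difference of -0.07, beside 0.00 over all genes. The median size of the difference was 0.17 over the 9 genes and 0.18 over all genes. In 8 of the 9, the gap between the MSI2-inducible arrays was wider than the difference between the genotypes, and 5 of the 9 were lowest in MSI2-inducible replicate 1. The share of all genes was not counted for either, so neither count is read as a trait of the 9 genes. Of the 13 probe sets, 0 passed limma over all probe sets, where 0.00444% did.

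Slamf1 and Fcgr3 were the genes that spanned at least 1 on the log2 scale over the 5 arrays, by 2.42 and 1.70. The genes with the nearest profiles to Slamf1 were AI854703, Diaph2, a formin, and Zfp945, a zinc finger gene, with a root mean square difference of 0.11, 0.13 and 0.14 after each gene was centred on its mean. Diaph2 read 6.82 and 8.26 in MSI2-inducible replicates 1 and 2, against 8.23, 8.91 and 8.67 in control replicates 1, 2 and 3. The nearest to Fcgr3 were Rab2b, a small GTPase, Pfdn4, a prefoldin subunit, and Mcee, a methylmalonyl-CoA epimerase, at 0.12, 0.12 and 0.15. Rab2b read 8.45 and 7.23 in MSI2-inducible replicates 1 and 2, against 8.22, 6.90 and 8.11 in control replicates 1, 2 and 3. With 5 arrays and 18193 genes, near profiles are a description.

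**Figure D3:**
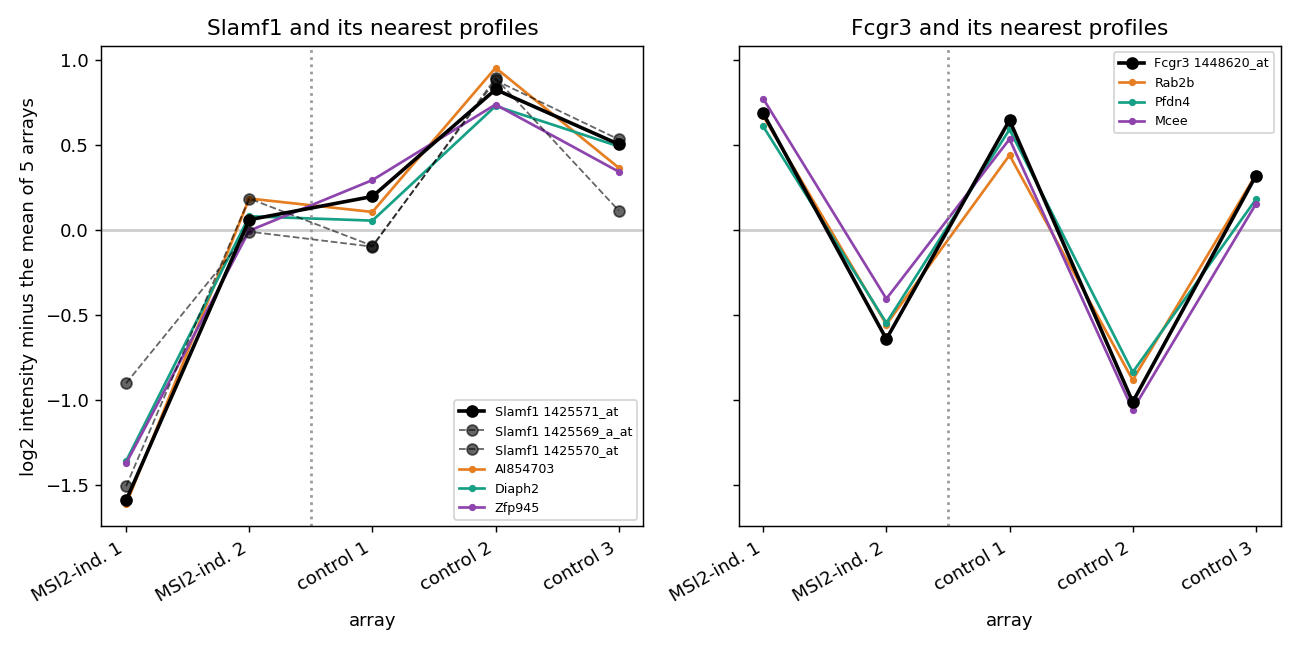
Profiles over the 5 arrays of Slamf1 (left, 3 probe sets in black, the brightest solid) and Fcgr3 (right, 1 probe set), each with its 3 nearest genes in colour, as log2 intensity minus the gene's mean over 5 arrays. All Slamf1 probe sets are lowest in MSI2-inducible replicate 1, and Fcgr3 is low in the second replicate of each group.

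Other surface genes of stem cells had small differences as a list. Of 36 genes, 33 were measured, 0 passed limma in either direction, 9 were higher and 24 lower on average in MSI2-inducible arrays, and the median difference was -0.07, beside 0.00 over all genes. At an unadjusted limma p under 0.05, 1 was higher and 3 were lower, where 5.64% of all genes passed. The integrin chain Itgb3 read 9.37 and 9.55 in MSI2-inducible arrays, against 9.18, 8.64 and 8.17 in control replicates 1, 2 and 3 (difference 0.80). Cd47, the signal that protects cells from engulfment, read 12.14 and 12.38 in MSI2-inducible arrays, against 12.75, 12.64 and 12.79 in control arrays (difference -0.47). The integrin chain Itga6 differed by -0.56, and Ramp2, a receptor activity-modifying protein, by 0.49. Ramp2 read 5.77 in MSI2-inducible replicate 1, against 4.43 to 4.91 in the other arrays. All 4 had a limma adjusted p between 0.880 and 0.925, and the groups did not overlap for the first 3, as for 18.7% of all genes.

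Some stem cell surface genes had their lowest array, MSI2-inducible replicate 1, in common with Slamf1, and others of the list were highest there. Prom1 read 9.30 in that array, against 6.62 to 8.48 in the other arrays, and Vcam1 read 8.69, against 5.73 to 7.45. Tek, the angiopoietin receptor, read 5.57 and 7.81 in MSI2-inducible replicates 1 and 2, against 6.73, 8.28 and 7.21 in control replicates 1, 2 and 3. Esam, an adhesion molecule of stem cells and endothelium, read 6.46 and 7.74 in MSI2-inducible arrays, against 7.21, 8.75 and 7.69 in control arrays. In both, as for Slamf1, MSI2-inducible replicate 1 was lowest and control replicate 2 highest. The groups overlapped for both genes. Cdh5, which endothelium expresses, read 4.17 and 3.74 in MSI2-inducible arrays, against 4.15, 6.88 and 3.89 in control replicates 1, 2 and 3, and its part in these values was not tested.

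Surface genes of committed progenitors had a median difference of 0.15 over 24 measured of 28 genes, with 19 higher and 5 lower on average and 0 that passed limma. Set against each gene's control mean, the list had a median of 0.43 and -0.03 in MSI2-inducible replicates 1 and 2, against 0.12, -0.14 and 0.07 in control replicates 1, 2 and 3. The higher median thus came with MSI2-inducible replicate 1, and without that array it was -0.03. Epor, the erythropoietin receptor, read 8.30 and 7.89 in MSI2-inducible arrays, against 7.24, 6.97 and 6.57 in control arrays. Its groups did not overlap, and the difference was 1.16 (limma adjusted p 0.616). The myeloid lectin Cd33 differed by 0.59, the chemokine receptor Ccr7 by -0.68 and the interleukin 3 receptor chain Il3ra by -0.41.

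Ligands, co-receptors and signalling partners of the antigens had a median difference of 0.09 over 25 measured of 29 genes, with 14 higher and 11 lower on average and 0 that passed limma. The sign of this median rested on single arrays, since it was 0.19 without MSI2-inducible replicate 1, -0.04 without MSI2-inducible replicate 2 and -0.05 without control replicate 2, and it was -0.01 with low values left out. F2r, the thrombin receptor through which activated protein C signals when bound to Procr, read 9.63 and 9.59 in MSI2-inducible arrays, against 10.65, 9.93 and 10.43 in control arrays. Its groups did not overlap, and the difference was -0.73 (limma adjusted p 0.870). Jak3, a kinase of the interleukin 7 receptor complex, differed by -0.63, its partner Jak1 by 0.26, and Ptpn6, a phosphatase that dampens Kit signals, by 0.25. Kitl, the ligand of Kit, lay between 3.23 and 4.46 in all 5 arrays, under the median of all probe sets.

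**Figure D4:**
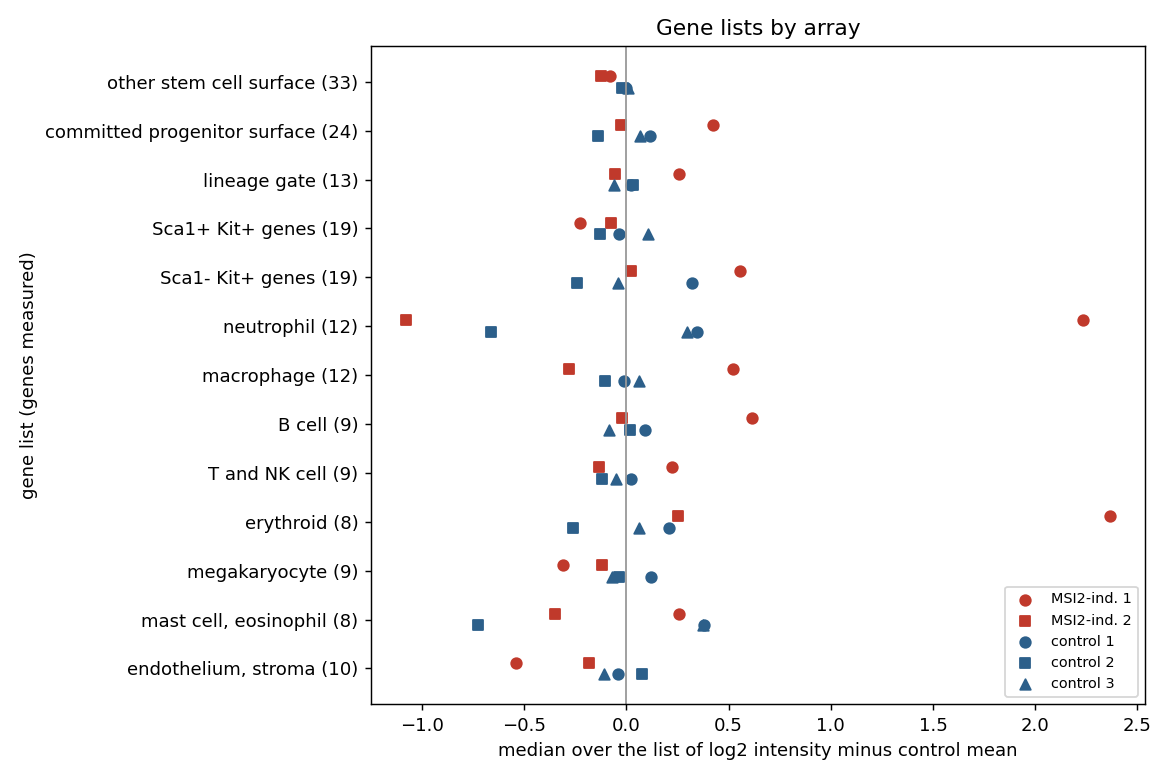
Median of each gene list in each array, as log2 intensity minus the control mean of each gene, for MSI2-inducible (red) and control arrays (blue), with the number of genes measured in brackets. MSI2-inducible replicate 1 stands apart for neutrophil and erythroid markers (2.23 and 2.36). The median of the stem cell surface list stays within -0.12 to 0.01 in all 5 arrays, while single genes of the list vary more.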

How the data were processed

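RNA of sorted mouse bone marrow cells from 2 MSI2-inducible and 3 control rtTA samples was amplified linearly and hybridised to Affymetrix arrays, per the labels' protocols. The authors deposited 1 normalized intensity per probe set and array, and the range and array medians of these values show a linear scale. RMA, affy and R 2.11.0 are named in the submitters' processing notes, and no source used here tells how values came back from RMA's log scale. A normalization that matches arrays can hide a shift common to all genes.

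Log2 was taken with no pseudocount. The 45101 probe sets held 64 controls, 34945 with 1 symbol in the platform annotation, 932 with more and 9160 without any. The RefSeq gene table held the gene ID of 34741 single-symbol ones. A gene's value is that of its brightest probe set over all arrays. The genotypes were tested with limma 3.58.1 under R 4.3.3 (group as the only term, trend and robust off) over all 18193 genes, and again over 45037 probe sets, with two-sided p-values adjusted by Benjamini-Hochberg and a threshold of 0.05. The fit was tested on simulated data, with changes larger than the difference of any member over all arrays. That test does not show how well smaller differences are found.

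The members and lists were chosen with earlier results of these data known. Named were all members and the 3 genes nearest in profile to members that spanned at least 1. Of the stem cell surface, committed progenitor surface and partner lists, the 2 higher and the 2 lower genes of smallest p were named. Of the other lists only some genes are named, and clone names were passed over, except AI854703. The SLAM cluster genes, Fcgr2b, Fcgr4, Fcer1g, Elane, Ms4a3, Tek, Esam, Prom1, Vcam1, Cdh5, Itgam, Cd79b, Slc4a1, Hba-a1 and Kitl were chosen after their values were seen. Alternatives changed the probe set rule, the filter on low values, scaling, limma's variance settings, weighting of arrays, a block by replicate number, the threshold and the arrays kept.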

Additional observations from a re-analysis of the deposited data

How the results depend on the processing

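No member, and no member probe set, passed limma under any alternative run. All genes higher numbered 3, and 1 with array weights; genes lower numbered 1, and 2 when dim genes were left out, 2 after a further quantile normalization and 3 for a threshold of 0.10. With an array left out, 0 to 0 genes were called in each direction, while 1026 reached an unadjusted p under 0.05 with all 5. The replicate block called 0 genes higher and 0 genes lower; 2 pairs exist, nothing in the labels ties them, and deviations of same-numbered arrays correlated at 0.134 and 0.0990. Signs turned for 4 members: Kit spanned -0.59 to 0.10 over left-out arrays and its dimmer probe set -0.24 to 0.29, Cd34 -0.47 to 0.33, Procr -0.22 to 0.41 and Fcgr3 -0.63 to 0.70. With the replicate block Cd34 was 0.024 and Procr -0.0057, and with array weights Fcgr3 was -0.20. The cause was not tested. Slamf1 was lower under all 13 alternatives, from -2.10 to -0.45. Both MSI2-inducible arrays lay below all control arrays in its brightest probe set, so leaving out an array could not turn the sign. Leaving out dim genes or turning on limma's trend and robust settings kept the Slamf1 difference at -1.27, since neither changes its values. Members above the array median in every array numbered 9, and 7 with the mean of probe sets. A lone MSI2-inducible array was taken to vary as control arrays do. Signal near the array median limits Slamf1 and Il7r.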

Other observations

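Of 12 macrophage markers all were measured, with a median difference of 0.21, and -0.28 without MSI2-inducible replicate 1. Their summed intensity was 2437 and 1230 in MSI2-inducible replicates 1 and 2, against 1312 to 1639 in control arrays. Of the 12, 10 were higher and 2 lower on average, and 0 passed limma. Ccr2, a monocyte chemokine receptor, read 8.50 and 8.09 in MSI2-inducible arrays, against 6.78, 6.72 and 6.38 in control arrays. Its difference was 1.67 (limma adjusted p 0.226), whereas C1qb differed by -0.86 (limma adjusted p 0.911). Of 10 B cell markers 9 were measured. Their summed intensity was 4714 and 1400 in MSI2-inducible replicates 1 and 2, against 1252 to 2273 in control arrays. Their median difference was 0.39, and -0.02 without MSI2-inducible replicate 1. Of the 9, 6 were higher and 3 lower on average, and 0 passed limma. Vpreb1, a surrogate light chain gene of early B cells, read 9.03 and 8.87 in MSI2-inducible arrays, against 7.24, 4.60 and 8.36 in control replicates 1, 2 and 3. Its difference was 2.22 (limma adjusted p 0.911). Igll1 of the same list read 5.16 and 5.38 in MSI2-inducible arrays, against 4.99, 4.99 and 6.23 in control arrays, a difference of -0.13. Of 10 T and NK cell markers 9 were measured, with a median difference of -0.03, and -0.13 without that array. Their summed intensity there, 773.3, lay within the control range of 645.8 to 1162.

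Of 10 megakaryocyte markers 9 were measured, with a median difference of -0.07. Of these, 2 were higher and 7 lower on average, and 0 passed limma. Pf4, a platelet chemokine, read 7.90 and 8.69 in MSI2-inducible arrays, against 10.05, 9.45 and 9.54 in control arrays. Its difference was -1.38 (limma adjusted p 0.616), the widest of the list. Vwf differed by -0.95 (limma adjusted p 0.461), whereas Gp9 differed by 0.11 and Treml1 by 0.19. Of 10 mast cell and eosinophil markers 8 were measured, 3 higher and 5 lower on average, with a median difference of -0.17. Epx, the eosinophil peroxidase, read 6.81 and 3.73 in MSI2-inducible replicates 1 and 2, against 8.69, 3.78 and 7.75 in control replicates 1, 2 and 3, low in the arrays that were low in Fcgr3. Of 10 endothelium and stroma markers all were measured, 4 higher and 6 lower on average, with a median difference of -0.34. Cxcl12, the chemokine that holds stem cells in the marrow, read 4.61 and 5.79 in MSI2-inducible arrays, against 6.33, 8.79 and 6.95 in control arrays, a difference of -2.16 (limma adjusted p 0.870). Among the 19 genes of Sca1-positive cells 0 passed, with a median difference of -0.13, and among the 19 of Sca1-negative progenitors 0 passed, with a median of 0.14. Without MSI2-inducible replicate 1 these medians were -0.07 and 0.03. The lists of neutrophil, erythroid and lineage gate genes had medians of 0.64, 1.34 and 0.20 with all arrays, and of -1.08, 0.25 and -0.05 without that array. The lists of megakaryocyte, mast cell and eosinophil, and endothelium and stroma markers had medians of -0.12, -0.35 and -0.18 without it.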
